A study of Mus musculus with 14 samples.

Results

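The immediate early genes described here are 10 genes that cells transcribe within minutes of a stimulus: Fos, Fosb, Junb, Egr1, Npas4, Nr4a1, Dusp1, Ier2, Btg2 and Arc. They were taken by gene symbol, each through the probe set that names only that gene and has the highest mean over all arrays. All 10 were among the 17097 genes tested, and 1 of them, Btg2, had a second probe set of its own. RNA of the whole mouse hypothalamus was measured on 14 Affymetrix arrays in 4 groups. These were knockout mice fasted for 16 h (n = 3), knockout mice fed at random (n = 4), control mice fasted for 16 h (n = 3) and control mice fed at random (n = 4). The knockout mice lack Mfn1, a mitochondrial fusion protein, in neurons that express pro-opiomelanocortin (POMC), and the labels name neither the Cre driver nor the genotype of the controls beyond the word control. All mice were 12 weeks old, on a mixed background of C57Bl/6J, FVB/N and 129. Nothing in the labels tells whether an array was made from a single animal, and the p-values below rest on the variation between arrays alone.

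Immediate early genes need no new protein synthesis to be switched on, because the factors that bind their promoters are already present and are activated by calcium, cyclic AMP and MAP kinase signals. Their products then regulate a second wave of genes, and several of them, such as the phosphatase Dusp1, damp the signal that induced them. In the hypothalamus Fos in particular is used as a marker of neurons that were recently active, including neurons that respond to food deprivation. Their messenger RNAs are short-lived, so a level reflects the period just before the tissue was taken.

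Whole-tissue values carry some limits. The deleted gene Mfn1 lay between 9.04 and 9.11 in fasted and between 9.03 and 9.12 in fed knockout mice, against 9.05 to 9.07 in fasted and 8.99 to 9.1 in fed control mice. They are no check of the genotype, because most cells of the tissue are not POMC neurons and the deleted exons are not known for the 3 probe sets of the gene. Among the hypothalamus markers, the peptide genes Pmch and Oxt were high on every array, at 12.06 to 12.63 and 10.07 to 10.96 on the log2 scale. Others were lower, such as Crh at 5.99 to 7.32, Ghrh at 4.93 to 6.15 and Otp at 3.61 to 4. Control fed replicate 1 stood apart. A score of 12 cortex and hippocampus markers, the mean of their centred log2 values, was 0.68 there, against -0.18 to 0.28 on the other 13 arrays, and the score of 17 hypothalamus markers was -0.60, against -0.08 to 0.18. The sample titles carry numbers, which were split here into a low and a high series. The titles name no such series, and a gap wider than the one at the split lies within the low series. All 6 fasted arrays and knockout fed replicate 1 belong to the low series and the other 7 fed arrays to the high one, so in control mice fasting and number series cannot be told apart. In whole tissue, fewer cells of a type and less RNA per cell cannot be told apart either.

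The promoters of the members were searched for elements known to pass on activity signals, and 4 are printed because 2 belong to the genes that rose after the fast (Fos and Dusp1), 1 to the other gene with a complete cyclic AMP response element (Btg2) and 1 to the gene with the most copies of its short form (Nr4a1). RefSeq windows of 300 bases, 250 before and 50 after the annotated start on GRCm38.p6, were used for 7 of the 10 members and none for Egr1, Arc and Ier2. The capitals mark the 5-base core of the cyclic AMP response element, TGACG or its complement CGTCA, and, where it is complete, the 8-base palindrome TGACGTCA. The windows read 5′ to 3′ on the strand of the gene. They cover chr12:85473640-85473939 on the plus strand for Fos, chr17:26508423-26508722 on the minus strand for Dusp1, chr1:134079106-134079405 on the minus strand for Btg2 and chr15:101266596-101266895 on the plus strand for Nr4a1.
Fos: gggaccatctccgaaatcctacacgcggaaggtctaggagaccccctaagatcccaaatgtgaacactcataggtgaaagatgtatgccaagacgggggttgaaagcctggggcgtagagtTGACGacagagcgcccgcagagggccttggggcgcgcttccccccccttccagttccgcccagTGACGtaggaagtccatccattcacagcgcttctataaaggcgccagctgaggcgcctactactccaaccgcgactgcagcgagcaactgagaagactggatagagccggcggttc
Dusp1: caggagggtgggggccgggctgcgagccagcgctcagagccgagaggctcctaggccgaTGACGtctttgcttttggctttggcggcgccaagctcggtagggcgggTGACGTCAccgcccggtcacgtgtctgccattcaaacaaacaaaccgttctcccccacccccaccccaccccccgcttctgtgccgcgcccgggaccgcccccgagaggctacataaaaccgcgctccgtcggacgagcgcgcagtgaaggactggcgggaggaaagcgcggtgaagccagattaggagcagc
Btg2: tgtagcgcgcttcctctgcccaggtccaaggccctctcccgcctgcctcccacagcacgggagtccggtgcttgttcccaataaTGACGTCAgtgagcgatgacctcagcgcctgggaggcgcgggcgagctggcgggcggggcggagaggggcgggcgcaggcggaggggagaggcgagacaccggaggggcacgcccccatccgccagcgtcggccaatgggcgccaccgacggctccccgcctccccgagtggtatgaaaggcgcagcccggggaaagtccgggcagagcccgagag
Nr4a1: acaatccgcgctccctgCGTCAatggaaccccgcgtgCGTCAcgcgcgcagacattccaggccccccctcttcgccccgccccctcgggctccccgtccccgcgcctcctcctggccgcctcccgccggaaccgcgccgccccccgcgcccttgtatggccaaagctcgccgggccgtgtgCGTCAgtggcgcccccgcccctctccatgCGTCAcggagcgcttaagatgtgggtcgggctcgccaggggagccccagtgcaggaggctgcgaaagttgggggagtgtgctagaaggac

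All 7 windows held TGACG on either strand, a motif that 20.8% of the 32851 mouse promoter windows of the same length hold. The Fos window held it 129 and 66 bases before the start. The complete palindrome TGACGTCA, which contains the core on both strands, was in the windows of Dusp1 (143 bases before the start) and Btg2 (166 bases before), against 1.79% of all windows. Nr4a1 held 4 cores, all as CGTCA, at 233, 213, 69 and 40 bases before the start. Junb and Fosb each held 1, at 106 and 60 bases, and Npas4 held 2, at 179 and 169 bases. GCGNGGGCG, the site of the EGR proteins, was found on either strand in 3 windows, those of Fosb, Nr4a1 and Btg2, against 5.55% of all windows. TATAAA on either strand was in 2, those of Fos (33 bases before the start) and Junb (at the annotated start itself), against 13.6% of all. The distances given for each window depend on the annotated start. The CArG box that serum response factor binds (1.63% of all windows) and the AP-1 site (5.2%) were in none of the 7, which says only that these letters are not in this stretch. The 7 windows had a GC content of 58.7% to 72.3%, where the median of all windows was 52.7%. These matches are descriptions of the sequence.

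The 4 groups asked whether a fast, the deletion or their combination shifts the level of these genes. Fos, whose protein pairs with Jun proteins to form the transcription factor AP-1, stood at 8.40, 8.31 and 9.05 in fasted and at 8.51, 8.12, 8.22 and 8.14 in fed knockout mice (log2 values). It stood at 8.88, 9.07 and 9.16 in fasted and at 7.90, 8.39, 8.66 and 7.58 in fed control mice. In control mice every fasted array lay above every fed array, and in knockout mice 1 fasted array, replicate 3, lay above all the fed ones while the other 2 lay within the range of the fed ones. Averaged over genotypes (6 fasted, 8 fed arrays), Fos rose by 0.62 ± 0.16 (SE) on the log2 scale after the fast, a 1.54-fold difference, with an adjusted p of 0.029 in limma.

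Dusp1, the phosphatase that inactivates MAP kinases and is also known as a target of glucocorticoids, stood at 8.63, 9.16 and 9.58 in fasted and at 8.48, 8.69, 8.70 and 8.89 in fed knockout mice. It stood at 9.49, 9.42 and 10.01 in fasted and at 8.54, 8.75, 9.05 and 8.08 in fed control mice. The fasted control arrays again lay above all fed control arrays, and fasted knockout replicate 1 lay within the range of the fed knockout arrays. The averaged fasting difference was 0.73 ± 0.17, a 1.66-fold rise, with an adjusted p of 0.0161 in limma.

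**Figure D1:**
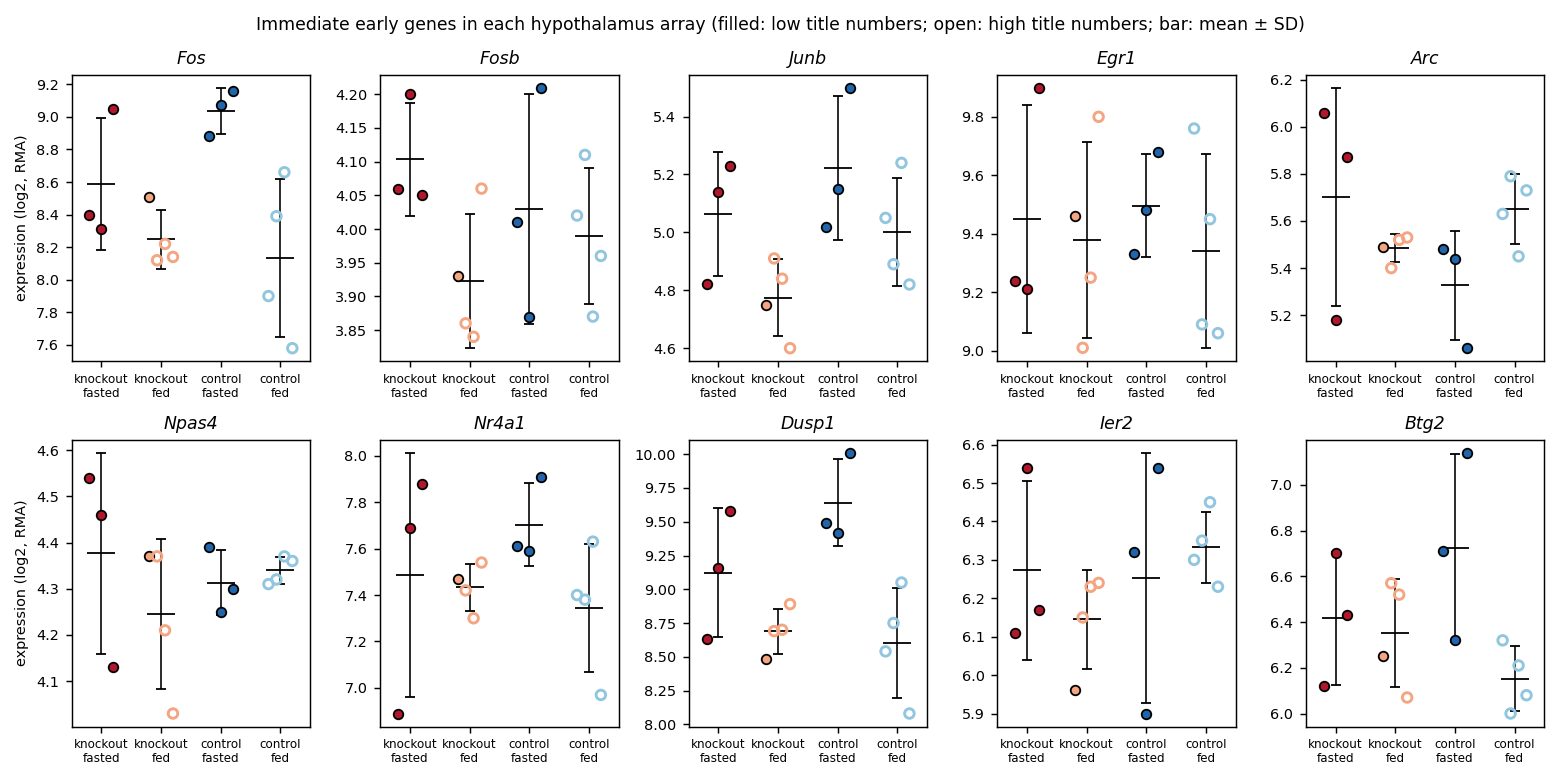
Log2 expression of each immediate early gene (vertical axis, its own scale per gene) on every array, by group, with the group mean and SD as bars; filled points have title numbers of the low series and open points of the high series. For Fos and Dusp1 the 3 fasted control arrays lie above all 4 fed control arrays, and in knockout mice the fasted and fed arrays overlap.

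These 2 genes were the members that passed the threshold of an adjusted p under 0.05 in the averaged fasting comparison, 2 of 10 or 20%, both higher after the fast, where 5.14% of all genes passed with higher levels. The other 8 did not pass. The median difference of the 10 was 0.16, against 0.0025 over all genes, and 9 of the 10 were above 0, as were 50.9% of all genes. For each member, including Fos and Dusp1, at least 1 fasted array lay among the fed arrays when both genotypes were pooled; 3.40% of all genes had no such overlap.

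The call for both genes depended on how the number series was treated. With the series as a covariate, a fit that rests on knockout fed replicate 1 as the only fed array with a low number, Fos was at 0.32 ± 0.34 (adjusted p = 0.814) and Dusp1 at 0.98 ± 0.36 (adjusted p = 0.35), and 15 of all genes passed. Over 23 alternative fits Dusp1 passed in 22 and Fos in 13, with adjusted p of 0.0132 to 0.814 for Fos.

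The other AP-1 members did not pass. Junb, a partner of Fos in AP-1, stood at 4.82, 5.14 and 5.23 in fasted and 4.75, 4.91, 4.84 and 4.6 in fed knockout mice, and at 5.02, 5.15 and 5.50 in fasted and 5.05, 4.89, 5.24 and 4.82 in fed control mice. Its averaged fasting difference was 0.26 ± 0.09 (adjusted p = 0.105). Fosb, the source of the long-lived form that builds up with repeated stimulation, stood between 4.05 and 4.20 in fasted and 3.84 and 4.06 in fed knockout mice, and between 3.87 and 4.21 in fasted and 3.87 and 4.11 in fed control mice, a difference of 0.11 ± 0.06 (adjusted p = 0.273). Both genes overlapped between fasted and fed arrays in each genotype. The means of Fosb (4.0), Npas4 (4.32) and Junb (5.0) over all arrays lay inside the 3.41 to 5.28 spanned by the means of 23 probe sets without a target, so a change in these genes was harder to see on this array. The median of those probe sets was 3.64, and Junb lay toward the upper end of their range.

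Among the other transcription factors, Egr1, a zinc finger protein, had 9.24, 9.21 and 9.90 in fasted and 9.46, 9.01, 9.25 and 9.80 in fed knockout mice, and 9.33, 9.48 and 9.68 in fasted and 9.76, 9.09, 9.45 and 9.06 in fed control mice. The 4 groups overlapped widely, and its fasting difference was 0.11 ± 0.15 (95% interval -0.22 to 0.44, adjusted p = 0.693). Nr4a1, an orphan nuclear receptor, had 6.89, 7.69 and 7.88 in fasted and 7.47, 7.42, 7.30 and 7.54 in fed knockout mice, and 7.61, 7.59 and 7.91 in fasted and 7.40, 7.38, 7.63 and 6.97 in fed control mice. Fasted knockout mice held both its lowest value of all 14 arrays and its second highest. Its difference was 0.21 ± 0.14 (adjusted p = 0.391). Npas4, a factor that neurons induce through calcium entry, ranged from 4.13 to 4.54 in fasted and 4.03 to 4.37 in fed knockout mice, and from 4.25 to 4.39 in fasted and 4.31 to 4.37 in fed control mice (difference 0.05 ± 0.07, adjusted p = 0.686).

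Of the remaining regulators, Btg2, an antiproliferative protein that promotes the shortening of messenger RNA tails, had 6.12, 6.70 and 6.43 in fasted and 6.25, 6.57, 6.52 and 6.07 in fed knockout mice, and 6.71, 6.32 and 7.14 in fasted and 6.32, 6.00, 6.21 and 6.08 in fed control mice. Control fasted replicate 3 was its highest array, as it was for Fos, Junb, Nr4a1 and Dusp1. Its averaged fasting difference was 0.32 ± 0.13 (adjusted p = 0.14), and without control fasted replicate 2 it was 0.42 and passed (adjusted p = 0.0462). The second Btg2 probe set had 5.33, 5.97 and 5.77 in fasted and 5.18, 5.36, 5.69 and 5.44 in fed knockout mice, and 5.67, 5.37 and 6.02 in fasted and 5.82, 5.49, 5.75 and 5.61 in fed control mice. The probe sets differed: the averaged fasting difference was 0.15 ± 0.12 on the second (adjusted p = 0.489), and in control mice 0.02 on the second against 0.57 on the first.

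Ier2, a small nuclear protein of less well known function, had 6.11, 6.54 and 6.17 in fasted and 5.96, 6.15, 6.23 and 6.24 in fed knockout mice, and 6.32, 5.90 and 6.54 in fasted and 6.30, 6.35, 6.45 and 6.23 in fed control mice. Fasted and fed arrays overlapped throughout, with a difference of 0.02 ± 0.10 (adjusted p = 0.906). Arc, which acts at synapses by promoting the uptake of AMPA receptors, had 6.06, 5.18 and 5.87 in fasted and 5.49, 5.40, 5.52 and 5.53 in fed knockout mice. It had 5.48, 5.44 and 5.06 in fasted and 5.63, 5.79, 5.45 and 5.73 in fed control mice. It was the member with the lowest averaged fasting difference, -0.05 ± 0.12 (adjusted p = 0.827), and 2 fasted knockout arrays held its highest values while the third held the second lowest.

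**Figure D2:**
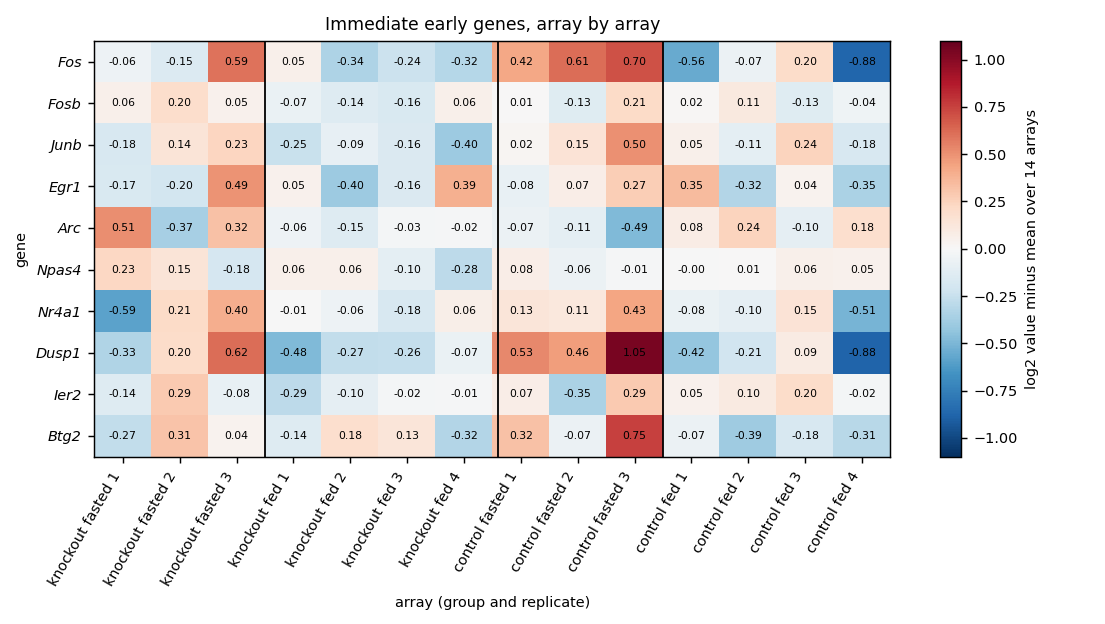
Log2 value of each gene (rows) on each array (columns, grouped as knockout fasted, knockout fed, control fasted and control fed) minus the mean of that gene over all 14 arrays. Control fasted replicate 3 is above the mean for 8 of 10 genes, with Arc and Npas4 the exceptions, and control fed replicate 4 holds the lowest Fos and Dusp1 values.

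Within knockout mice (3 fasted, 4 fed arrays) no member passed in limma, where 0.696% of all genes did, and none had an unadjusted p under 0.05, which 16.5% of all genes had. The differences ranged from 0.05 for Nr4a1 to 0.43 for Dusp1 (SE 0.24, adjusted p = 0.389), with Fos at 0.34 ± 0.23 (adjusted p = 0.5), Junb at 0.29 ± 0.13 (adjusted p = 0.305), Arc at 0.22 and Fosb at 0.18. Npas4 and Ier2 were at 0.13 each, Egr1 at 0.07 and Btg2 at 0.06. Leaving out 1 array moved Fos between 0.11 and 0.48, Dusp1 between 0.21 and 0.68 and Arc between 0.04 and 0.48. All 10 were above 0, as were 52.5% of all genes, but Egr1, Nr4a1, Ier2 and Btg2 turned below 0 when some single arrays were left out, and the fasted and fed arrays of each member overlapped, where 13.0% of all genes had none. With the number series as a covariate, Fos was at 0.08 and Dusp1 at 0.64.

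Within control mice (3 fasted, 4 fed arrays) Dusp1 rose by 1.04 ± 0.24, a 2.05-fold difference with an adjusted p of 0.0352 in limma. Fos was at 0.90 ± 0.23 (1.87-fold) with an adjusted p of 0.0534, short of the threshold. So 1 of 10 members passed, against 2.76% of all genes and 1.64% with higher levels. Fos and Dusp1 were also the members whose fasted control arrays all lay above the fed ones, 2 of 10, where 7.94% of all genes lay fully above. Btg2 was at 0.57 ± 0.18 (adjusted p = 0.123), and without control fasted replicate 2 it was at 0.77 and passed (adjusted p = 0.049). Nr4a1 was at 0.36 ± 0.20 (adjusted p = 0.381), Junb at 0.22 and Egr1 at 0.16. Fosb was at 0.04, Npas4 at -0.03, Ier2 at -0.08 and Arc at -0.32 ± 0.17 (95% interval -0.69 to 0.04, adjusted p = 0.344). The Dusp1 call was near the threshold and was lost in 13 of 24 alternative fits, among them the one without control fed replicate 1 (1.01, adjusted p = 0.0756) and the fit with the number series as a covariate (1.32, adjusted p = 0.351).

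The fasting comparisons of knockout and of control mice share no arrays, and the difference between them is the interaction. It was -0.60 ± 0.34 for Dusp1 (95% interval -1.32 to 0.12), -0.57 ± 0.33 for Fos (-1.27 to 0.14) and -0.51 ± 0.26 for Btg2 (-1.07 to 0.05), in each case a smaller estimate in knockout mice. For Btg2 the direction turned on the second probe set, where the interaction was 0.25 ± 0.24, and the mean of both probe sets gave -0.13. For Arc it was 0.54 ± 0.24 (0.03 to 1.06), with an unadjusted p of 0.0405 and an adjusted p of 1. No member passed, and none of the 17097 genes did in limma (0%). At an unadjusted p under 0.05 there was 1 member, Arc, and 3.83% of all genes. The intervals of Dusp1 and Fos hold both 0 and a value as large as the whole control difference with its sign turned.

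**Figure D3:**
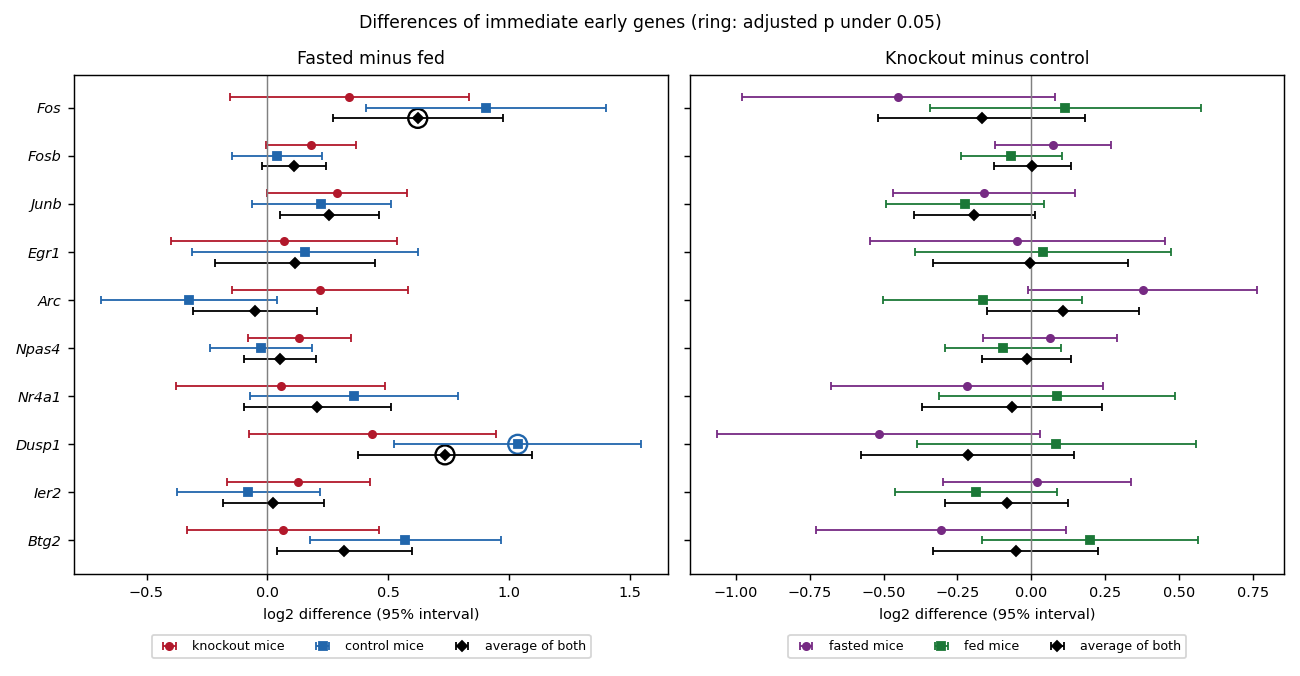
Log2 differences of each immediate early gene with 95% intervals, for fasted minus fed (left panel: knockout mice, control mice and their average) and for knockout minus control (right panel: fasted mice, fed mice and their average); rings mark adjusted p under 0.05. Rings stand at the averaged fasting difference of Fos and Dusp1 and at the control fasting difference of Dusp1, and none stands in the genotype panel.

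The deletion was compared within each feeding state. In fasted mice (3 knockout, 3 control arrays) Dusp1 differed by -0.52 ± 0.25 (95% interval -1.06 to 0.03), Fos by -0.45 ± 0.25 (-0.98 to 0.08) and Btg2 by -0.31 ± 0.20. The second Btg2 probe set differed by 0.003 (SE 0.18), and leaving out 1 array moved the first between -0.51 and -0.10. Arc differed by 0.38 ± 0.18 (-0.01 to 0.77). None of the 10 passed (adjusted p = 1 for each of these), and none of all genes did in limma (0%). At an unadjusted p under 0.05 there were 0 members and 3.87% of all genes. All 6 of these arrays were placed in the low series, so the split into series does not differ between genotypes here. The numbers within that series do differ. Control fasted replicates 2 and 3 have higher numbers than every fasted knockout array, and control fasted replicate 1 lies among them. Genotype and title number are thus partly tied in fasted mice, and a part of the number in these differences was not tested.

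In fed mice (4 knockout, 4 control arrays) the members differed by -0.23 to 0.20. The upper end was Btg2, whose second probe set was at -0.25 ± 0.16. Junb was at -0.23 ± 0.12, Ier2 at -0.19 ± 0.13 and Arc at -0.17 ± 0.16, with an adjusted p of 0.995 each, and 0 of 10 passed where 0.00585% of all genes did, with 0 members and 4.62% of all genes at an unadjusted p under 0.05. Averaged over feeding states, Dusp1 was at -0.22 ± 0.17, Junb at -0.19 ± 0.09, Fos at -0.17 ± 0.16 and Arc at 0.11 ± 0.12 (adjusted p = 0.999 each). Again 0 of 10 passed, against 0.00585% of all genes, with 0 members and 4.65% of all genes at an unadjusted p under 0.05. Markers of the choroid plexus, the tissue that makes cerebrospinal fluid, had scores that did not overlap between genotypes in fasted mice and overlapped in fed mice. Their score was 0.83 to 0.84 in fasted and -1.30 to 1.56 in fed knockout mice, against -1.44 to -0.07 in fasted and -1.49 to 0.73 in fed control mice, with 0 of 7 markers past the threshold. Their part in the genotype differences was not tested.

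The spread between arrays of 1 group was wide for most members. The within-group SD was 0.353 for Dusp1, 0.342 for Fos, 0.321 for Egr1 and 0.295 for Nr4a1, each at or above the 97th percentile of all genes, whose median SD was 0.119. Btg2 (0.270), Arc (0.248), Ier2 (0.199) and Junb (0.194) lay between the percentiles 86.1 and 95.9. Npas4 (0.136) and Fosb (0.115), both near the level of probe sets without a target, lay at percentiles 62 and 47.6. A difference of the same size is therefore harder to tell from replicate error in most of these genes than in a typical gene.

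Deviations from the group means were also compared between members. Over the 14 arrays, Pearson's r of these deviations was 0.90 between Nr4a1 and Dusp1, 0.74 between Junb and Btg2, 0.74 between Ier2 and Btg2, 0.73 between Junb and Dusp1, 0.73 between Junb and Nr4a1 and 0.71 between Fos and Dusp1. Of 45 pairs, 12 lay above 0.5 and 6 below -0.5, with a median of 0.16. Arc had negative values with several members, with -0.72 to Btg2, -0.70 to Ier2 and -0.64 to Junb, and Egr1 and Npas4 stood at -0.71. All pairs share the same 14 arrays and the same RNA, so these values are a description. The share of all gene pairs beyond these cutoffs was not computed, so the counts cannot be called particular to these genes.

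**Figure D4:**
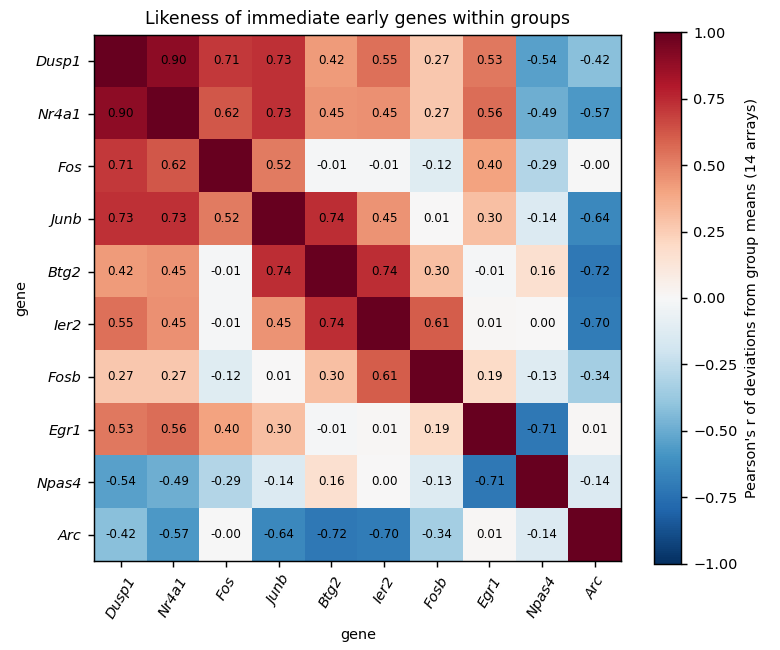
Pearson's r between the deviations of each pair of immediate early genes from their group means, over 14 arrays; the colour and the printed value are the same quantity. Dusp1, Nr4a1, Fos and Junb form a block of values from 0.52 to 0.90, and the column of Arc is mostly negative.

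By the same measure, the non-members most like the mean of the members, out of 17087 genes, were Fcna (0.91), Gm6936, Nsmce1, Anp32b, Cdc45, Tent5b, Eme2 and Slurp1 (0.86). Their within-group SD lay between 0.057 and 0.137, below that of most members, and none of them passed in the averaged fasting comparison. The means of Fcna (4.20), Gm6936 (3.99), Cdc45 (4.13), Tent5b (3.74) and Slurp1 (4.22) lay inside the 3.41 to 5.28 of probe sets without a target. Those of Nsmce1, Anp32b and Eme2 lay above it. These are the highest values picked from 17087 genes over 14 arrays, so shared regulation cannot be read from them. The genes most like Fos alone were Vwa1 (0.94), Hsd17b4 (0.92) and 4932437C15Rik (0.91). Of these Vwa1 fell by 0.28 on the log2 scale after the fast (adjusted p = 0.0174 in limma), while Fos rose. The measure leaves out the group means. The mean of 4932437C15Rik (4.045) also lay inside the range of probe sets without a target, and those of Vwa1 and Hsd17b4 lay above it.

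Related genes of the same response were read from 4 further lists. Of 20 other immediate early transcription factors, all measured, 3 rose in the averaged fasting comparison (15%, against 5.14% of all genes), with a median of 0.10. Csrnp1, a cysteine- and serine-rich nuclear protein, rose by 0.80 ± 0.20 (adjusted p = 0.0226 in limma). It ranged from 6.11 to 7.48 in fasted against 5.55 to 6.03 in fed arrays, with no overlap, where 3.40% of all genes had none. Fasted values of 6.11, 6.14 and 6.19 lay close above the highest fed value. Its highest values were 7.48 in control fasted replicate 3 and 7.05 in knockout fasted replicate 2. Maff, a small MAF protein, rose by 1.20 ± 0.33 (adjusted p = 0.0341), with fed values that lay within the 3.41 to 5.28 of the probe sets without a target, so that the size of the rise is uncertain. Myc rose by 0.28 ± 0.07 (adjusted p = 0.032). Jun, the main partner of Fos, was at 0.24 ± 0.13 (adjusted p = 0.243), and Nr4a2 and Nr4a3, relatives of Nr4a1, were at 0.01 and -0.12.

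Of 26 other immediate early signalling and RNA-binding genes 24 were measured, and 5 of these rose (20.8%), with a median of 0.06. Without knockout fasted replicate 2 none of them rose. Apold1, an endothelial early response gene, rose by 1.48 ± 0.43 (adjusted p = 0.0443 in limma). Gadd45g, a stress-induced regulator of growth arrest, rose by 0.80 ± 0.20 (adjusted p = 0.0225). Tiparp, a member of the poly(ADP-ribose) polymerase family, rose by 0.32 ± 0.09 (adjusted p = 0.0344). The kinase Plk3 rose by 0.28 ± 0.07 and the survival factor Mcl1 by 0.17 ± 0.05 (adjusted p = 0.023 and 0.0427). Apold1 and Maff were uneven within the fasted groups. Apold1 stood at 5.47, 8.25 and 6.05 in fasted knockout and 5.75, 6.51 and 8.35 in fasted control mice, against 4.88 to 5.56 in fed mice. The median of its fed values, 5.265, lay at the upper end of the 3.41 to 5.28 of probe sets without a target. The size of the Apold1 rise is therefore uncertain too. Maff stood at 4.83, 6.78 and 4.52 in fasted knockout and 4.69, 5.36 and 6.50 in fasted control mice, against 4.07 to 4.54 in fed mice. Knockout fasted replicate 2 and control fasted replicate 3 were the highest arrays for Apold1 and Maff, as they were for Csrnp1 and Gadd45g.

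Genes downstream and upstream of the immediate early response were read next. Of 20 activity-regulated synaptic and secreted genes 18 were measured, and 1 of them rose (5.56%, against 5.14% of all genes), the secreted granule protein Vgf (0.16 ± 0.04, adjusted p = 0.0312). Omitting single arrays gave 14 fits, and in 9 of them no gene of this list rose. Their median was 0.00. Of 26 activators of immediate early promoters 21 were measured and 3 fell (14.3%, against 4.90% of all genes), with a median of -0.08. Leaving out 1 array gave 2 to 4. Creb1, the factor that binds the cyclic AMP response element, fell by 0.32 (SE 0.07, adjusted p = 0.0168), the calcium-dependent kinase Camkk2 by 0.29 (SE 0.08, adjusted p = 0.0296) and Map2k1, which activates the MAP kinase ERK, by 0.15 (SE 0.03, adjusted p = 0.0154). For Camkk2 and Map2k1 the fasted arrays all lay below the fed ones. The same held for Mef2c of this list, which did not pass (-0.53, adjusted p = 0.063 in limma). Among all genes 3.40% had no overlap in either direction. None of the 82 genes of these 4 lists passed in limma in knockout or in control mice alone, where 15 (18.3%) and 21 (25.6%) of them had an unadjusted p under 0.05, against 16.5% and 17.5% of all genes, nor did any pass in the averaged comparison when the number series was a covariate.

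**Figure D5:**
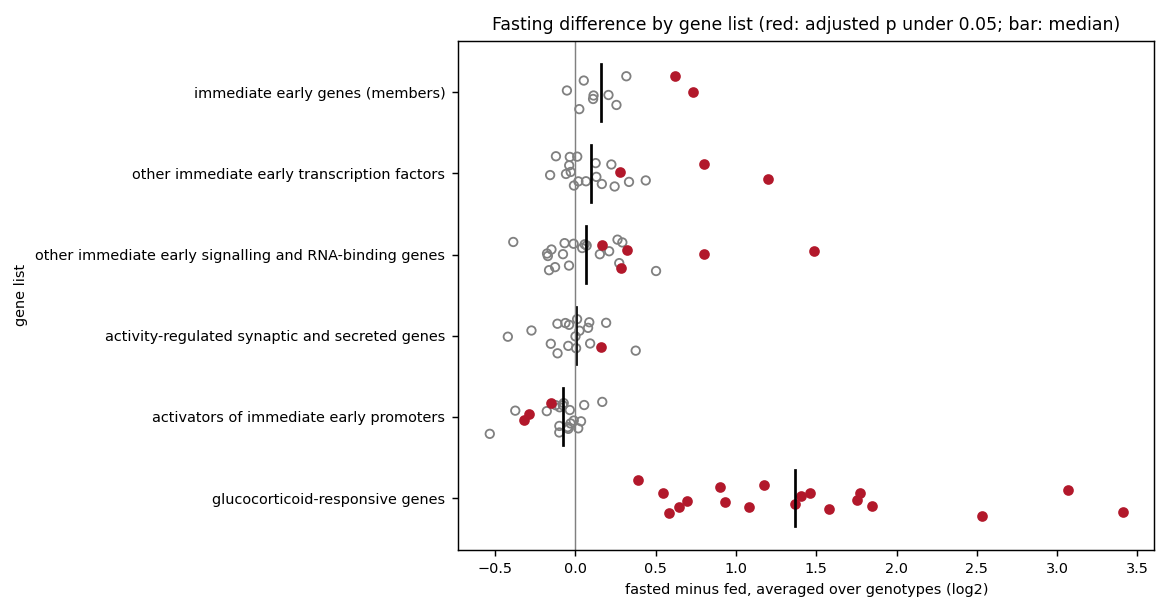
Averaged fasting difference (fasted minus fed, log2, horizontal axis) of each measured gene of the immediate early genes and 5 related lists (rows), with the median of each list as a bar and genes at an adjusted p under 0.05 in red. The immediate early lists have medians between 0.06 and 0.16 with a few genes past the threshold, and all 19 glucocorticoid-responsive genes lie above 0.39.

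Signs of other processes moved with the fast and stand beside these results. Of 20 glucocorticoid-responsive genes 19 were measured and all 19 rose (100%, against 5.14% of all genes), with a median of 1.37. This list was chosen with its response in these arrays known. Their score was 0.27, 1.21 and 0.34 in fasted and -0.71 to -0.17 in fed knockout mice, against 0.80, 1.04 and 1.24 in fasted and -0.75 to -0.56 in fed control mice. The array with the highest score, control fasted replicate 3, was also the highest for Fos and Dusp1. Knockout fasted replicate 2, with 1.21, held the lowest Fos value of the fasted arrays and a Dusp1 value of 9.16. Knockout fasted replicates 1 and 3, with scores of 0.27 and 0.34, had Dusp1 at 8.63 and 9.58. Of 9 microglia markers 5 fell (55.6%, against 4.90% of all genes). Microglia scores were -0.34 to 0.01 in fasted and 0.03 to 0.15 in fed knockout mice, and -0.32 to -0.17 in fasted and 0.18 to 0.27 in fed control mice. Of 10 astrocyte markers 4 rose and 1 fell (50%, against 10% of all genes in either direction). Astrocyte scores were 0.03 to 0.12 in fasted and -0.12 to -0.05 in fed knockout mice, and 0.10 to 0.25 in fasted and -0.14 to -0.04 in fed control mice. Of 10 endothelial markers 1 rose and 3 fell (40%). Of 11 pan-neuronal markers 1 fell (9.09%, against 4.90% of all genes), with scores within -0.06 to 0.05 on all arrays. Their part in the Fos and Dusp1 differences was not tested.

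Tissue from neighbouring regions was read in the same way. Of 12 cortex and hippocampus markers 1 fell after the fast (8.33%, against 4.90% of all genes). Their score was -0.18 to -0.05 in fasted and -0.08 to 0.28 in fed knockout mice, against -0.12 to -0.08 in fasted and -0.08 to 0.68 in fed control mice. Of 7 thalamus markers 1 fell (14.3%), and of 17 hypothalamus markers 1 rose and 1 fell (11.8%). Of 9 oligodendrocyte markers 1 rose and 1 fell (22.2%). Of 5 striatum, 7 choroid plexus and 6 pituitary and blood markers none passed. Among all genes 10% passed in either direction. Without control fed replicate 1 the Dusp1 rise stayed past the threshold, and Fos was at 0.58 (adjusted p = 0.0514), against 0.62 with all arrays. Leaving out control fed replicate 1 and knockout fed replicate 4 together, the arrays with the highest cortex and hippocampus scores, gave Fos at 0.57 (adjusted p = 0.0798).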

How the data were processed

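Hypothalamic RNA of 14 samples was measured on Affymetrix arrays from 150 ng of RNA each. The authors deposited log2 values from RMA, run in affy according to the submitters' processing notes (no versions stated). The method corrects background, normalises arrays to a common distribution and summarises probes, which compresses changes in dim probe sets. Values were used as deposited, over 45141 probe sets, and array medians lay between 4.98 and 5.05. Gene names came from the platform annotation of 2016, and coordinates and promoters from RefSeq, GRCm38.p6. The number of arrays limits the precision.

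Each of 17097 genes was represented by the probe set naming only it with the highest mean. The fit used limma 3.58.1 under R 4.3.3 (lmFit with 1 coefficient per group over all 14 arrays, 7 contrasts, eBayes, 10 residual and 3.27 prior degrees of freedom), two-sided, with Benjamini-Hochberg adjustment over all genes and a threshold of 0.05. The fold change of a log2 value d is 2 to the power d. Groups came from the sample titles, whose numbers all differ and pair no samples. The fit was tested on simulated data.

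The members and all 16 other lists, which hold 228 genes of which 205 were measured, were chosen with earlier results of these data known. All members are named. Genes were named by rule from the lists of other immediate early genes, activity-regulated genes and activators. The rule took up to 6 genes with the smallest p among those past the threshold in the averaged fasting or genotype contrast. The remaining lists are given as counts or scores, without this rule. From the likeness search the 8 genes most like the members' mean and the 3 most like Fos were named. Pmch, Oxt, Crh, Ghrh, Otp, Jun, Nr4a2, Nr4a3 and Mef2c were named after their values were seen. Alternatives were averaging all probe sets of a gene, dropping the dimmest 40% of genes, the compared groups alone, a trended and robust prior, array weights, array medians subtracted, 3 covariates (number series, cortex and hippocampus score, 3' minus 5' difference of control probe sets) and leaving out each array.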

Additional observations from a re-analysis of the deposited data

How the results depend on the processing

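In the averaged fasting comparison 2 members passed. The count was 0 in the fit with the number series, and it was 1 with the cortex and hippocampus score or the 3' minus 5' difference as a covariate and, as an alternative chosen after seeing the data, without control fed replicate 1 and knockout fed replicate 4 together; leaving out 1 array at a time gave 1 to 2. Fos, which lost its call there, was at 0.56, 0.59 and 0.57 in these 3 fits, against 0.62. Dusp1 passed in each of the 14 fits that left out 1 array. Fos passed in 8 of the 14 (0.51 to 0.71, adjusted p 0.0132 to 0.0662), and it did not pass without knockout fasted replicate 3, knockout fed replicate 2 or 3, control fasted replicate 2 or 3, or control fed replicate 1. In control mice 1 member passed. The count was 2 with probe sets of a gene averaged, with the 40% filter and with array medians subtracted, and 0 with the groups compared alone, with the trended and robust prior, with the number series or the cortex and hippocampus score as a covariate and without control fed replicate 1 and knockout fed replicate 4; leaving out 1 array gave 0 to 2. Dusp1 was then at 0.85 to 1.18 and lost its call without knockout fed replicate 2 or 3, control fasted replicate 1, 2 or 3, or control fed replicate 1, 2 or 4. The count in the other 5 comparisons was 0 under every alternative run. The 40% filter removes Fosb, Npas4 and Junb.

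Of 45 gene differences, among them all fasting differences, 11 changed sign under some alternative, and these 11 were all fasting differences. Of 25 further differences, all in the genotype and interaction comparisons, 17 changed sign under some alternative. None of the 25 passed under any alternative. In the averaged fasting comparison Egr1 was at -0.040 with the 3' minus 5' difference, Npas4 at -0.093 with the number series, and Arc at 0.017 and Ier2 at -0.010 with array weights; leaving out 1 array gave Arc -0.14 to 0.078 and Ier2 -0.047 to 0.11. In control mice Ier2 was at 0.17 with the number series, and leaving out 1 array gave Fosb -0.05 to 0.12, Npas4 -0.065 to 0.005 and Ier2 -0.22 to 0.10. In knockout mice Egr1 was at -0.01 with the number series and at -0.20 with the 3' minus 5' difference, Nr4a1 at -0.087 and Btg2 at -0.058 with array weights, and Btg2 at -0.03 without control fed replicate 1 and knockout fed replicate 4. Leaving out 1 array there gave Egr1 -0.16 to 0.21, Nr4a1 -0.14 to 0.35, Ier2 -0.005 to 0.21 and Btg2 -0.078 to 0.21. None of these values passed, and the cause was not tested. Among the other lists, leaving out 1 array moved the count of risen transcription factors between 1 and 3 and that of signalling and RNA-binding genes between 0 and 5. No paired analysis was possible because the title numbers differ for every sample. No member's value met the criteria for a separate look in the groups of 4 arrays, which are the fed groups. The fasted groups of 3 arrays were not part of that check. Signal within the range of probe sets without a target limits Fosb, Npas4 and Junb.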
